A study of Mus musculus with 6 samples.

Results

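Chemokines and chemokine receptors were examined in the livers of mice given cadmium chloride and of control mice. The set held every gene of the deposited log2 table whose symbol is Ccl, Cxcl, Ccr or Cxcr followed by a number and at most 1 letter: 45 of 34352 genes, made up of 18 CC ligands, 12 CXC ligands, 9 CC receptors and 6 CXC receptors. Cadmium mice received CdCl2, a soluble cadmium salt, by gavage at 20 mg/kg per day for 90 days. Control mice were given 0 mg/kg on the same schedule. Per the labels both groups were wild-type C57BL/6 males, 6 to 8 weeks old, with 6 mice assigned to each group and 3 liver libraries per group. How mice were assigned to libraries is not stated, and p-values therefore reflect library-to-library spread, which may be technical. All 6 are input libraries of an m6A immunoprecipitation, a method that pulls down RNA carrying methylated adenosine, and per the labels they hold the fragments that the antibody left unbound. A change in abundance and a change in the share bound by the antibody cannot be told apart in these values.

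Chemokines are small secreted proteins that steer leukocytes along concentration gradients, and they are grouped by the spacing of their first conserved cysteines into CC and CXC families. Each acts through membrane receptors coupled to Gi proteins, which engage phosphoinositide 3-kinases, Rac GTPases and integrins in the responding cell. In liver, hepatocytes, sinusoidal endothelium, stellate cells and Kupffer cells (the resident macrophages) secrete the ligands, while most of the receptors sit on leukocytes.

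The 6 libraries held 42115960 to 68587128 reads, recovered from the deposited log2 values, and cadmium replicates 2 and 3 were the deepest. Metallothionein transcripts, which respond to cadmium, differed as the labels would have it, with Mt2 at 667 to 1284 FPKM (fragments per kilobase of gene relative to sequencing depth) in cadmium livers and 4.39 to 19.1 FPKM in control livers. The hepatocyte transcript Alb lay at 10130 to 17899 FPKM in cadmium livers and 10244 to 17478 FPKM in control livers. Cadmium replicate 2 and control replicate 1 were low in the mitochondrial rRNA mt-Rnr2, at 1119 and 1064 FPKM, against 4593 to 5428 FPKM in the other cadmium libraries and 3638 to 4885 FPKM in the other control libraries. The labels call the mice male, yet Xist, an RNA of the inactive X chromosome, stood at 27.1 to 35.5 FPKM in cadmium livers and 19.7 to 25.8 FPKM in control livers, and the Y-linked genes Kdm5d and Uty had at most 1 read in any library. In all 6 libraries these values do not match the male label.

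The transcripts of these genes were scarce apart from a pair of homeostatic ligands. Cxcl12 and Ccl9 together held 82.4% to 85.4% of all reads of the 45 genes in cadmium livers and 89.7% to 91.4% in control livers. Mean FPKM over the 6 libraries reached 1 for 4 of the 45 genes, namely Cxcl12, Ccl9, Cxcl16 and Cxcl1. The other 43 genes together gave 48.4 to 53.7 RPM (reads scaled to the library total) in cadmium livers and 28.8 to 34.2 RPM in control livers, with no overlap between the groups.

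Of the 45 genes, 28 reached a normalised read count (reads divided by the authors' size factor) of 10 in at least 3 of the 6 libraries and were tested. The test was limma on the deposited log2 values, fitted over all 18459 genes that passed the same minimum, and a gene was called when its Benjamini-Hochberg adjusted p was under 0.05. In cadmium livers 5 of the 28 were called higher (Ccr1, Ccr2, Ccr3, Cxcl1 and Cxcl9), 1 was called lower (Cxcl13) and 22 were not called. Over all genes tested, 2.72% were called higher and 2.41% lower, or 503 and 445 genes. With upper quartile scaling the split over all genes was 734 higher and 363 lower, and that of the 28 was 6 higher and 1 lower. Voom, limma's weighting of recovered reads, called the same 6 of the 28. Of the 28, 3 passed the minimum through the cadmium libraries alone (Ccl2, Ccr1 and Ccr3) and 1 through the control libraries alone (Cxcl13), so that low level in the other group was built into their passing. The cadmium and control libraries did not overlap for 9 higher and 2 lower genes of the 28, where the shares over all genes tested were 14.6% and 13.2%. Those counts include Ccl2, Ccr1, Ccr3 and Cxcl13, whose separation was fixed in advance by the minimum. The median log2 fold change was 0.35 for the 28 genes and 0.02 for all genes tested. Fitted with the replicate number as a block, 3 were called higher (Ccr1, Ccr2 and Cxcl9) and 0 lower, and 11 of the 28 had an unadjusted limma p under 0.05 without the block, where the share over all genes tested was 22%.

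**Figure D1:**
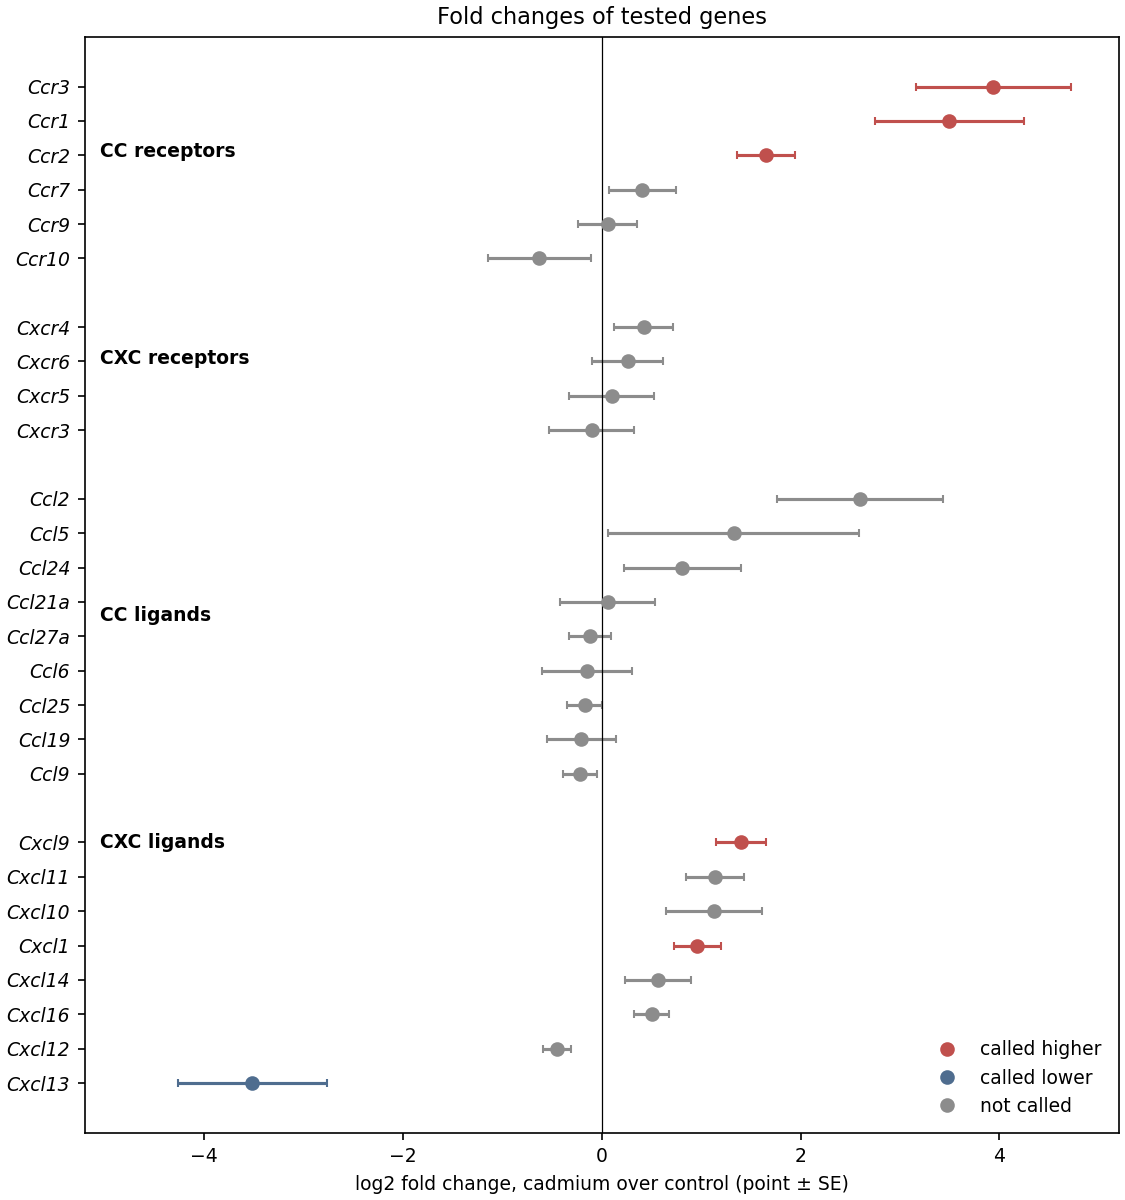
Log2 fold change of tested genes, all but 1 of the 28 (cadmium over control, x axis; point and SE from limma on log2(normalised read count + 1), 3 libraries per group), grouped as receptors and ligands. The CC receptors Ccr3, Ccr1 and Ccr2 lie farthest to the right among the called genes, and Cxcl13 lies alone at -3.51.

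The called receptors, Ccr1, Ccr2 and Ccr3, are known from monocytes, macrophages and granulocytes. Which cells carried them in these livers was not tested. Among the 7 tested CC receptors 3 were called higher in cadmium livers and 0 lower. The shares over all genes tested were 2.72% and 2.41%. Ccr1 and Ccr3 entered the test through the cadmium libraries alone, so a low control level was built into that count. Ccr2, the receptor that draws Ly6C-high monocytes out of bone marrow and into tissue, had normalised read counts of 129, 195 and 268 in cadmium livers and 71.7, 48.9 and 60.3 in control livers. Every cadmium library lay above every control library, and cadmium replicate 3 was the highest. The means were 198 ± 69.3 in cadmium livers and 60.3 ± 11.4 in control livers (SD, n = 3 each), a log2 fold change of 1.65 ± 0.29 (SE; limma adjusted p = 0.0123). Without cadmium replicate 3 the limma adjusted p was 0.0721.

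Ccr1, a receptor of monocytes, macrophages and neutrophils, was close to absent from control livers. Its normalised read counts were 37.8, 33.8 and 41.9 in cadmium livers and 0, 4.44 and 6.41 in control livers, which were 33, 46 and 54 reads in cadmium livers and 0, 4 and 5 reads in control livers. The cadmium libraries lay close together and above all 3 control libraries. That separation was fixed by the count minimum, which Ccr1 passed through the cadmium libraries alone. Ccr1 rose by 3.50 ± 0.75 on the log2 scale (SE; limma adjusted p = 0.0267). Its size depended on the pseudocount and unit, at 2.39 on log2(normalised read count + 5) and 1.43 on log2(FPKM + 0.1). Leaving out cadmium replicate 1, 2 or 3 gave limma adjusted p-values of 0.104, 0.0675 and 0.139.

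Ccr3, the eotaxin receptor that marks eosinophils, had normalised read counts of 22.9, 63.1 and 37.3 in cadmium livers and 6.14, 0 and 1.28 in control livers. The control counts stood for 6, 0 and 1 reads, and the lowest cadmium library lay above all of them. Ccr3 passed the count minimum through the cadmium libraries alone, which fixed that separation in advance. The log2 fold change was 3.94 ± 0.78 (SE; limma adjusted p = 0.0199), and it was 2.61 with a pseudocount of 5 and 1.42 on log2(FPKM + 0.1). The call was lost with the replicate block (limma adjusted p = 0.0521). It was also lost without cadmium replicate 1, 2 or 3, where limma adjusted p-values were 0.0561, 0.0872 and 0.110, and without control replicate 3 (limma adjusted p = 0.0522). Eosinophil and mast cell markers, a list chosen after values were seen, were near 0: Siglecf had 12 reads in the cadmium libraries together and 2 in the control libraries, and Epx had 8 in cadmium and 0 in control libraries. Il5ra, Ms4a2 and Cpa3 had 4 reads or fewer in each group. Ear2, the 1 tested gene of that list, stood at 0.876, 1.04 and 1.45 FPKM in cadmium livers and 0.450, 0.577 and 0.148 FPKM in control livers (limma adjusted p = 0.118). The part of such cells in the Ccr3 value was not tested.

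The promoter of Ccr3 is shown because it alone among the 3 called receptors held a match to a searched motif, and the sequence is the RefSeq one (GRCm38.p6, the 250 bases before the annotated start, 5′ to 3′ on the gene's strand, chr9:124021721-124021970, plus strand) with capitals marking an NF-kB-like motif, GGGNN followed directly by TTNCC, searched on both strands.
Ccr3: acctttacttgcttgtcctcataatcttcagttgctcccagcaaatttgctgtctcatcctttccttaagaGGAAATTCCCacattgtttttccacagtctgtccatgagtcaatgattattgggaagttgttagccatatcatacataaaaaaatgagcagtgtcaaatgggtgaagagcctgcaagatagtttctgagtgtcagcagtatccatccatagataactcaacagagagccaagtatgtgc
The match began 179 bases before the start. In the same window Ccr1 and Ccr2 held no match to this motif, to an interferon response motif (GAAAN followed directly by NGAAA) or to a STAT motif (TTCNNNGAA), both searched on both strands too. The NF-kB-like motif was found in 4.11% of 32851 promoters of the same length.

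Ccr7, Ccr9 and Ccr10, which guide mature dendritic cells and naive T cells, gut-homing lymphocytes and skin-homing lymphocytes, had log2 fold changes of 0.41, 0.06 and -0.63 and were not called. None of the 4 tested CXC receptors was called by limma or by voom, and 0 of them had an unadjusted p under 0.05. Their log2 fold changes were 0.42 for Cxcr4 (the CXCL12 receptor), 0.26 for Cxcr6 (the CXCL16 receptor), 0.10 for Cxcr5 (the CXCL13 receptor of B cells) and -0.10 for Cxcr3 (the receptor of CXCL9, CXCL10 and CXCL11 on T and NK cells). Of these, Cxcr3, Cxcr5 and Ccr9 changed sign under at least 1 alternative setting. Cxcr6, with 202 reads in cadmium and 137 in control libraries, overlaps Fyco1 (10595 and 6305) on the opposite strand. Cxcr5, with 60 and 41 reads, overlaps Bcl9l (9226 and 9614) in the same way. Ccr9 and Ccr10 also overlap opposite-strand genes with more reads, Lztfl1 and Cntnap1. The part of such overlaps in the receptor values was not tested.

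**Figure D2:**
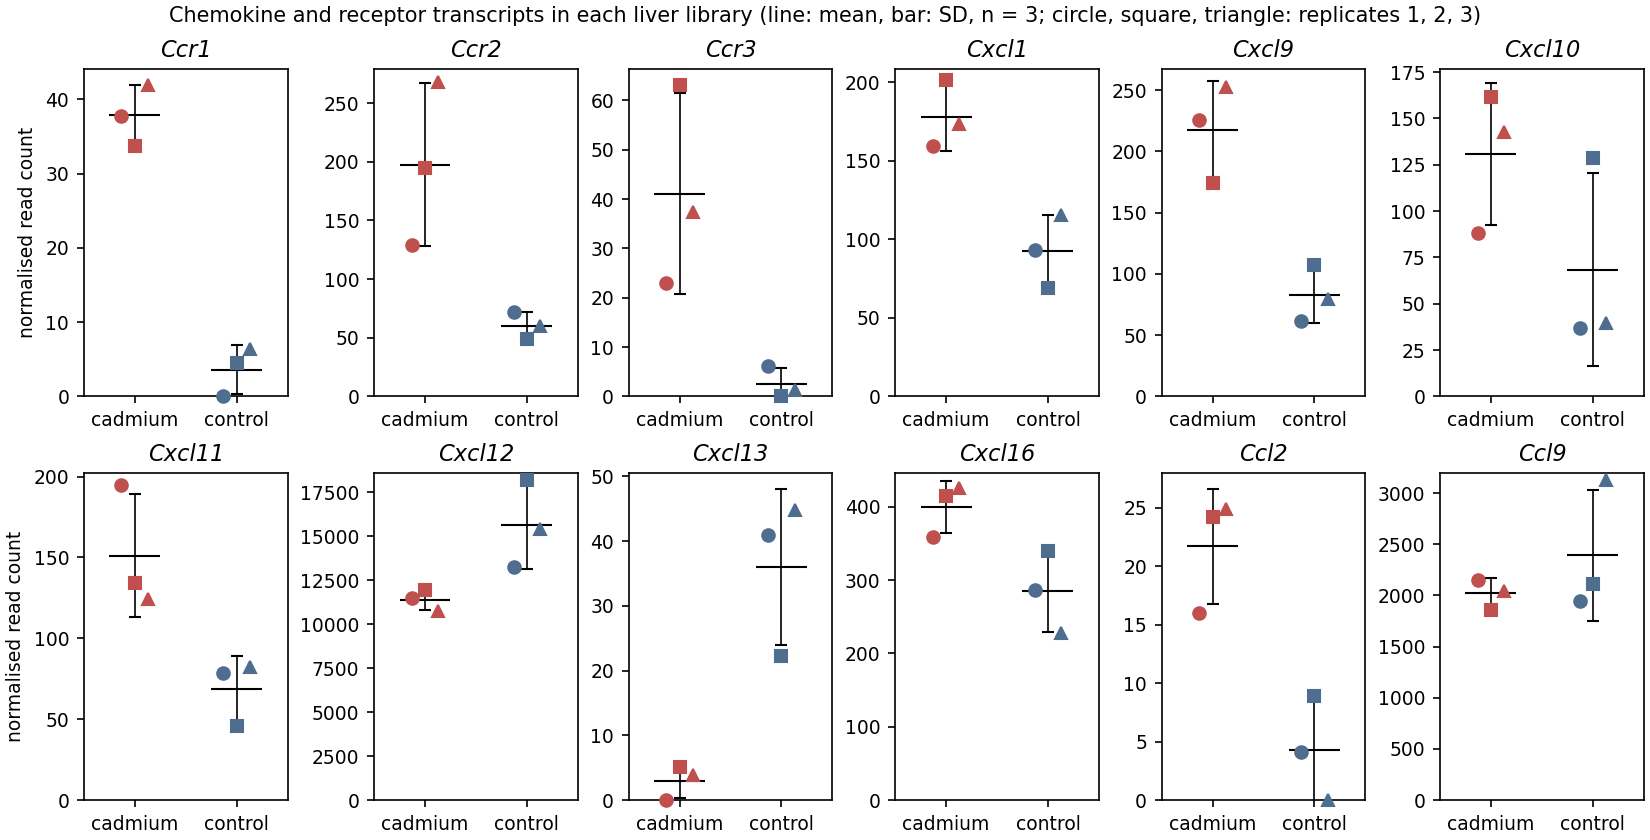
Normalised read count of 12 receptors and ligands in each library (y axis, own scale per gene; cadmium left, control right; circle, square and triangle are replicates 1, 2 and 3; line and bar are the mean and SD, n = 3, with bars cut at 0). The groups overlap for Cxcl10 and Ccl9 and for no other gene drawn. For Ccl2, Ccr1, Ccr3 and Cxcl13 the count minimum fixed the separation in advance.

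Of the 3 CXC ligands induced by interferon-gamma, Cxcl9 was called higher in cadmium livers, and Cxcl10 and Cxcl11 were not called. The group of CXCL9, CXCL10 and CXCL11 recruits CXCR3-bearing T and NK cells, and C57BL/6 mice carry a frameshift in Cxcl11 that leaves no functional protein. Cxcl9 had normalised read counts of 226, 174 and 252 in cadmium livers and 61.4, 108 and 79.5 in control livers. The lowest cadmium library exceeded the highest control library. The means were 217 ± 39.9 in cadmium livers and 82.9 ± 23.3 in control livers (SD, n = 3 each), and Cxcl9 rose by 1.40 ± 0.25 on the log2 scale (SE; limma adjusted p = 0.0138). Without cadmium replicate 1 or cadmium replicate 3 the limma adjusted p-values were 0.0602 and 0.0839.

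Cxcl11 fell just outside the threshold. It had normalised read counts of 195, 134 and 124 in cadmium livers and 78.8, 45.5 and 82.1 in control livers. Cadmium replicate 1 was the highest, and the groups did not overlap. The log2 fold change was 1.14 ± 0.29 (SE; limma adjusted p = 0.0509), and it was called under 5 alternatives with limma adjusted p-values from 0.0412 to 0.0493, while without cadmium replicate 1 the limma adjusted p was 0.179. Cxcl10, described after its values were seen, had 88.2, 161 and 143 in cadmium livers and 36.9, 129 and 39.8 in control livers, in normalised read counts. Control replicate 2 lay among the cadmium libraries, so the groups overlapped. The log2 fold change was 1.13 ± 0.48 (SE; limma adjusted p = 0.218), and without control replicate 2 it was 1.70 (limma adjusted p = 0.0240). Cxcl10 and Cxcl11 both overlap Art3 on the opposite strand, which had 281 reads in cadmium libraries and 145 in control libraries together. Whether strand was used in counting is not given in the sources used here.

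The promoters of Cxcl9 and Cxcl10 are shown because both held a searched motif (RefSeq, GRCm38.p6, 250 bases before the start, minus strand of chr5:92328080-92328329 for Cxcl9 and of chr5:92348890-92349139 for Cxcl10), with capitals for the NF-kB-like motif and, in Cxcl10, also for the interferon response motif.
Cxcl9: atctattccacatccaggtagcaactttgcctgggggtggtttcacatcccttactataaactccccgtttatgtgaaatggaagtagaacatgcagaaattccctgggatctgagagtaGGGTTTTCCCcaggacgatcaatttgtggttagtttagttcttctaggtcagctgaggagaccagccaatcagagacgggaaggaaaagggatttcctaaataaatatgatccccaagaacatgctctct
Cxcl10: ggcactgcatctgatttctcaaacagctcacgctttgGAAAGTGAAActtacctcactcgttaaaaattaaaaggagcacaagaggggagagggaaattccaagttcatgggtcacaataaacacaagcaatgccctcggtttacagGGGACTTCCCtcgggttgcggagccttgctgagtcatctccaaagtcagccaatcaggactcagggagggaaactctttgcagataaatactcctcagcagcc
Counted from the first base of each match, Cxcl10 held an interferon response match 213 bases and an NF-kB-like match 103 bases before the start, and Cxcl9 held an NF-kB-like match 130 bases before it. The interferon response motif was found in 2.98% of all promoters of this length and in those of 3 of the 31 matched chemokine and receptor genes (Ccl19, Cxcl10 and Cxcl14). The STAT motif was found in 7.02% of all promoters and in those of Ccr6 and Cxcl14. The NF-kB-like motif was found in those of 9 of the 31, namely Ccl9, Ccl19, Ccr3, Ccr6, Cxcl1, Cxcl2, Cxcl3, Cxcl9 and Cxcl10.

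Cxcl1, a neutrophil attractant that acts through CXCR2, had normalised read counts of 159, 202 and 173 in cadmium livers and 93.2, 68.8 and 115 in control livers. All 3 cadmium libraries were higher than all 3 control libraries. The means were 178 ± 21.7 in cadmium livers and 92.5 ± 23.3 in control livers (SD, n = 3 each), a log2 fold change of 0.96 ± 0.24 (SE; limma adjusted p = 0.0455). The call was lost under 9 of 18 alternative settings, more than for any other called gene. It was lost with the replicate block (limma adjusted p = 0.0870), with quantile normalization (0.0877), with no filter on low values (0.0657) and with no robust moderation (0.0550). Limma adjusted p-values were 0.101, 0.122 and 0.165 without cadmium replicate 1, 2 or 3, and 0.0614 and 0.0980 without control replicate 1 or 2. Its promoter held 2 NF-kB-like matches, which began 89 and 71 bases before the start, the only one shown with a pair of them (RefSeq, GRCm38.p6, chr5:90890995-90891244, plus strand, capitals for the matches).
Cxcl1: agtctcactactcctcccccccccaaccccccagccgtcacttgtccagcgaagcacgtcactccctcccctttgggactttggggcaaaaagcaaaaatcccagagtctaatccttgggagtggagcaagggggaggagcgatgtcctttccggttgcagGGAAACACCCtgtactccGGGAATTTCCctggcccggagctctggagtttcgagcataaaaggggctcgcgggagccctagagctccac

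Cxcl13, the B cell attractant that acts through CXCR5 and organises lymphoid follicles, moved the other way. Its normalised read counts were 0, 5.14 and 3.88 in cadmium livers and 40.9, 22.2 and 44.9 in control livers, from 0, 7 and 5 reads in cadmium livers and 40, 20 and 35 reads in control livers. Every cadmium library lay below every control library, which was fixed in advance because Cxcl13 passed the count minimum through the control libraries alone. Cxcl13 fell by 3.51 ± 0.75 on the log2 scale (SE; limma adjusted p = 0.0270), with log2 fold changes of -2.37 with a pseudocount of 5 and -1.97 on log2(FPKM + 0.1). The call was lost with the replicate block (limma adjusted p = 0.0533), without cadmium replicate 3 (0.0651) and without control replicate 1 or 3 (0.0595 and 0.0892). Of B cell and plasma cell markers 0 of 11 tested genes were called by limma and 0 by voom, and 2 had an unadjusted p under 0.05, with summed levels of 5.54 to 8.08 FPKM in cadmium livers and 2.26 to 5.31 FPKM in control livers. Its promoter, shown as that of the 1 gene called lower, held no match to the 3 motifs (RefSeq, GRCm38.p6, chr5:95956689-95956938, plus strand).
Cxcl13: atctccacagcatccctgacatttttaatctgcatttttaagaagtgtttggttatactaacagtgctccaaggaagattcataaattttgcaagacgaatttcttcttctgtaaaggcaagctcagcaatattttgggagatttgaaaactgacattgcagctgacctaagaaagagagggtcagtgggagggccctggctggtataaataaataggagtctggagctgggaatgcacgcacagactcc

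Cxcl12, the homeostatic ligand of CXCR4 made by stromal and endothelial cells, was the most abundant gene of the set per length, at 23.5, 23.5 and 21.2 FPKM in cadmium livers and 22.3, 32.7 and 27.9 FPKM in control livers. Its normalised read counts were 11484, 11918 and 10743 in cadmium livers and 13259, 18214 and 15423 in control livers. The normalised read counts did not overlap, and the FPKM did. The log2 fold change was -0.45 ± 0.14 (SE; limma adjusted p = 0.0976), and without control replicate 1 it was -0.56 (limma adjusted p = 0.0475). Cxcl16, a membrane-anchored ligand of CXCR6 that is also a scavenger receptor, had 359, 415 and 426 in cadmium livers and 287, 340 and 228 in control livers, in normalised read counts. The groups did not overlap. The log2 fold change was 0.50 ± 0.18 (SE; limma adjusted p = 0.128), and it was called in the fit on log2(FPKM + 1) (0.43, limma adjusted p = 0.0406). Cxcl16 overlaps Zmynd15 on the opposite strand. Cxcl14, the remaining tested CXC ligand, had a log2 fold change of 0.57 and overlapping groups (limma adjusted p = 0.355).

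None of the 9 tested CC ligands was called by limma or by voom, and 1 of them, Ccl2, had an unadjusted p under 0.05. Ccl9, a macrophage product that acts through CCR1 in mice, was the second most abundant gene of the set per length, at 11.8, 9.84 and 10.8 FPKM in cadmium livers and 8.79, 10.2 and 15.2 FPKM in control livers. Its normalised read counts were 2153, 1861 and 2048 in cadmium livers and 1949, 2108 and 3128 in control livers. The groups overlapped, and control replicate 3 was the highest (log2 fold change -0.22 ± 0.17, SE; limma adjusted p = 0.508). Ccl2, the main ligand of CCR2 and a monocyte attractant, had 16.0, 24.2 and 24.9 in cadmium livers and 4.09, 8.88 and 0 in control livers, in normalised read counts. All cadmium libraries were above all control libraries, which was fixed in advance because Ccl2 passed the count minimum through the cadmium libraries alone. The log2 fold change of 2.60 ± 0.84 was not called (SE; limma adjusted p = 0.102), and on log2(FPKM + 0.1) it was 1.43 with a limma adjusted p of 0.0342.

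The CC ligands made by epithelia had small differences. Ccl25, the ligand of CCR9, had normalised read counts of 203, 184 and 183 in cadmium livers and 245, 191 and 209 in control livers. The groups overlapped (log2 fold change -0.17 ± 0.17, SE; limma adjusted p = 0.611). Ccl27a, the ligand of CCR10, had 126, 186 and 134 in cadmium livers and 165, 145 and 168 in control livers, in normalised read counts. Cadmium replicate 2 was the highest of all 6 and cadmium replicate 1 the lowest (log2 fold change -0.12 ± 0.21, SE; limma adjusted p = 0.797). Ccl25 overlaps Elavl1 and Ccl27a overlaps Il11ra1, each on the opposite strand, and Ccl27a can share reads with its near-identical copy Ccl27b. The other 5 tested CC ligands had log2 fold changes of 1.33 (Ccl5, a T cell and macrophage attractant), 0.81 (Ccl24, an eotaxin and CCR3 ligand), 0.06 (Ccl21a, a CCR7 ligand with the near-identical copy Ccl21b), -0.15 (Ccl6, a myeloid CCR1 ligand of mice) and -0.21 (Ccl19, a CCR7 ligand). All 5 had overlapping groups and none was called. Among all CC ligands tested, Ccl5, Ccl6, Ccl19, Ccl21a, Ccl25 and Ccl27a changed sign under at least 1 alternative setting.

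Receptors and ligands can be set side by side per length. FPKM lay somewhat higher in cadmium livers in general, with a median log2 fold change of 0.17 over all genes tested on log2(FPKM + 0.1). Ccr2 averaged 0.471 ± 0.160 FPKM in cadmium livers and 0.125 ± 0.018 FPKM in control livers (SD, n = 3 each), and its ligand Ccl2 averaged 0.291 ± 0.076 FPKM in cadmium livers and 0.049 ± 0.050 FPKM in control livers. For Ccr1 the means were 0.217 FPKM in cadmium livers and 0.018 FPKM in control livers, far below those of its ligand Ccl9 (10.8 FPKM in cadmium livers and 11.4 FPKM in control livers). For Ccr3 they were 0.201 FPKM in cadmium livers and 0.009 FPKM in control livers, and its ligand Ccl24 averaged 0.494 FPKM in cadmium livers and 0.212 FPKM in control livers. Cxcr3 averaged 0.252 FPKM in cadmium livers and 0.224 FPKM in control livers, while Cxcl9 averaged 1.17 FPKM in cadmium livers and 0.393 FPKM in control livers. Thus called receptors without a called ligand (Ccr1, Ccr2 and Ccr3) and a called ligand with an uncalled receptor (Cxcl9) both occurred. Some ligands of these receptors were not tested, namely Ccl3, Ccl4, Ccl7, Ccl11 and Ccl12. The CCR1 ligands Ccl5 and Ccl6 were tested and not called. In bulk liver, fewer cells of a type and less RNA per cell cannot be told apart.

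The called genes lay in a few gene clusters (GRCm38 coordinates from GENCODE). The chromosome 9 stretch of receptor genes, from Ccr9 through Cxcr6, Xcr1, Ccr1 and Ccr3 to Ccr2 over 435 kb, held all 3 called receptors within 151 kb, from Ccr1 to Ccr2 (chr9:123962124-124113557). Their neighbours Xcr1, Cxcr6 and Ccr9 were not called. On chromosome 5, Cxcl9, Cxcl10 and Cxcl11 spanned 44.1 kb with Cxcl9 called, and Cxcl5, Ppbp, Pf4, Cxcl3, Cxcl1 and Cxcl2 spanned 147 kb with Cxcl1 and the platelet chemokine Pf4 called higher. Cxcl13, called lower, also lies on chromosome 5 (chr5:95956951-95961068), outside both clusters. In the chromosome 11 cluster, which runs from Ccl2 to Ccl4 over 1629 kb, 4 of 9 genes were tested and limma called 0 of them.

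**Figure D3:**
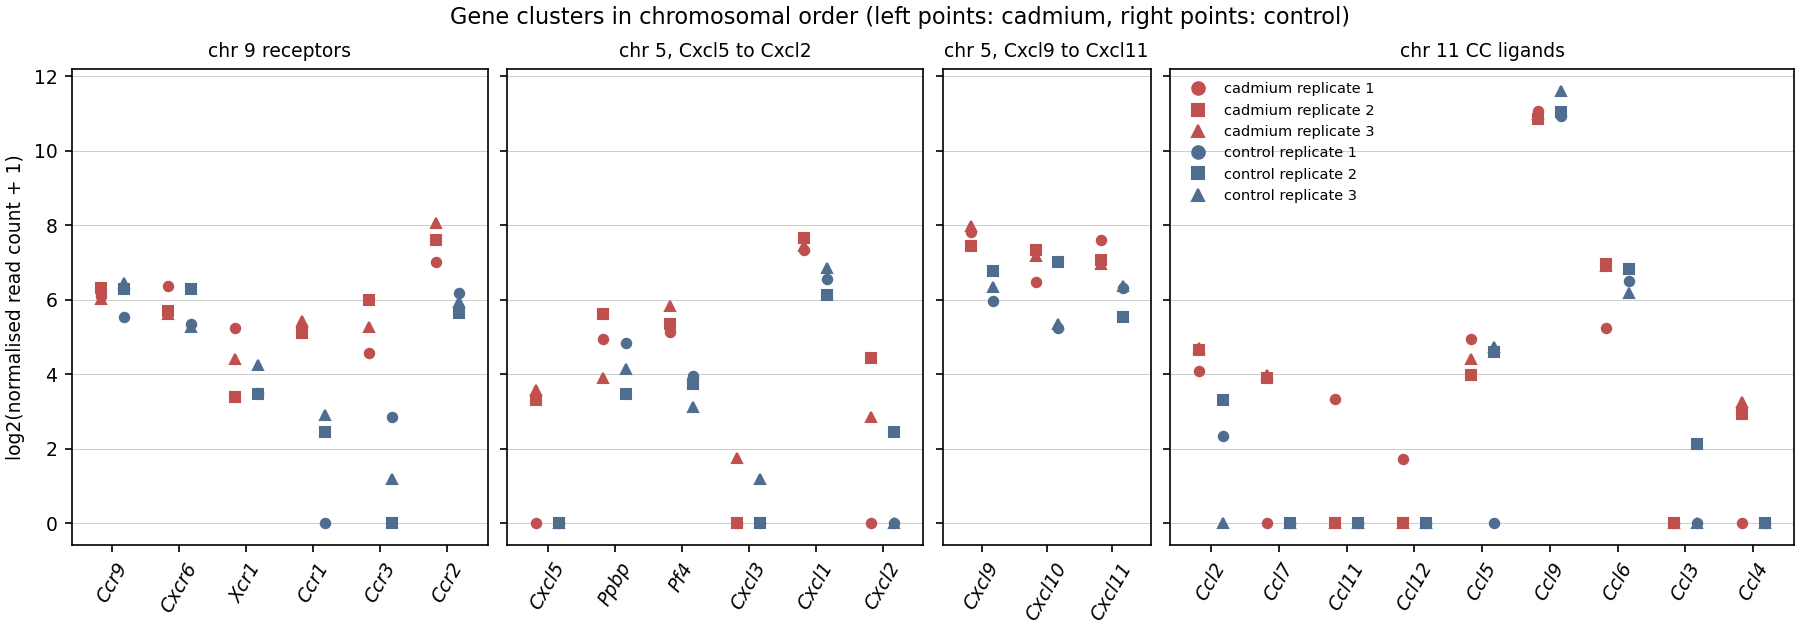
Deposited log2(normalised read count + 1) in each library (y axis) for genes of 4 clusters in chromosomal order (x axis, not to scale; cadmium points left and control points right within each gene). Ccr1, Ccr3 and Ccr2 separate the groups while Cxcr6 overlaps beside them, and Pf4 and Cxcl1 separate them in the first chromosome 5 cluster. For Ccr1 and Ccr3 the count minimum fixed the separation in advance.

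The remaining 17 genes stayed under the count minimum and were not tested, with at most 34 reads in any library. Cxcr2, the neutrophil receptor of CXCL1, had 8, 18 and 34 reads in cadmium livers and 0, 6 and 0 reads in control livers. The cadmium libraries all exceeded the control libraries, with the fewest reads in the shallowest of the 3. For 6 of the 17 genes no control library held a read: Ccl7, Ccl4, Ccl11, Ccl12, Cxcl5 and Cxcr1. A count of 0 allows up to 0.0198 RPM over the control libraries together (3 reads of the total, counting error only). Ccl7, a monocyte attractant of the CCR2 group, had 0, 19 and 19 reads in cadmium livers, which over the cadmium libraries together was 10.9-fold that limit. Cxcl5, a CXCR2 ligand, had 0, 12 and 14 reads in cadmium livers, together 7.45-fold that limit. Ccl4, a macrophage inflammatory protein, had 0, 9 and 11, together 5.73-fold that limit. These ratios leave out the counting error of the cadmium reads and the spread between libraries. They are not lower bounds of a group difference, since cadmium replicate 1 held 0 reads of each gene. Ccl7, Ccl4, Cxcl5 and Cxcr1 had reads in cadmium replicates 2 and 3 alone, the deepest libraries, and the part of depth in this was not tested. Ccl11 had 8 reads, all in cadmium replicate 1, and Ccl12 and Cxcr1 had 2 and 3 reads in cadmium livers. Ccl3, a CCR1 ligand, had 3 reads in control replicate 2 and 0 in every other library, which allows up to 0.0170 RPM over the cadmium libraries.

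**Figure D4:**
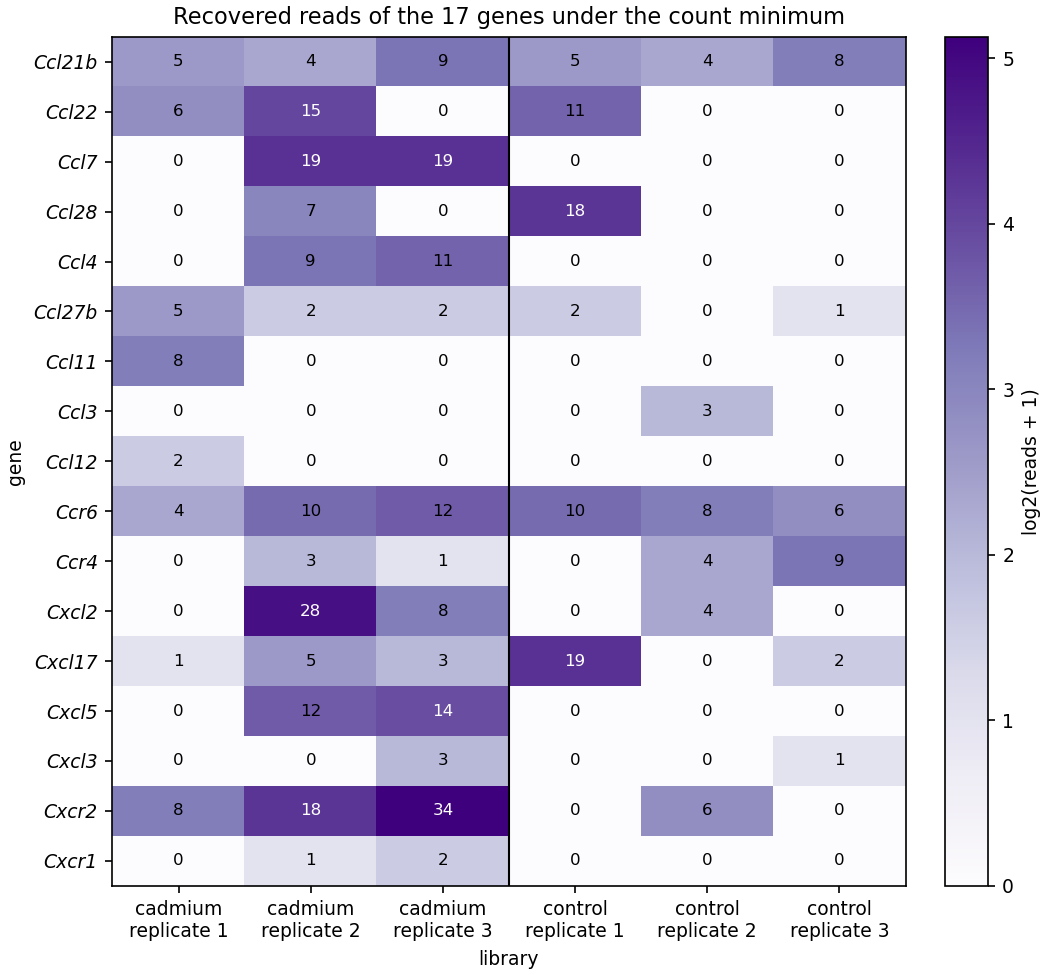
Reads recovered for the 17 untested genes in each library (number in each cell; colour is log2(reads + 1); cadmium libraries left of the line, control libraries right). Cxcr2, Ccl7, Cxcl5 and Ccl4 show reads mainly on the cadmium side, and Ccl21b and Ccr6 show reads in all 6 libraries.

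The chemokine system also holds genes with other names, such as the CX3C and XC receptors, decoy receptors and platelet chemokines. Of 15 tested genes in a list of these, 3 were called higher and 0 lower. For this and the lists below, the shares over all genes tested were 2.72% higher and 2.41% lower. With the replicate block 346 and 342 of all 18459 genes were called. Cx3cr1, the fractalkine receptor of monocytes and macrophages, stood at 0.622, 0.645 and 0.750 FPKM in cadmium livers and 0.0859, 0.0909 and 0.0644 FPKM in control livers. The groups were far apart (log2 fold change 2.80 ± 0.26, SE; limma adjusted p = 0.000609). Ackr2, a decoy receptor that removes inflammatory CC chemokines, rose by 1.48 (limma adjusted p = 0.0121), and Pf4 rose by 1.85 (limma adjusted p = 0.0284). With the replicate block 2 of the 15 were called, and Pf4 lost its call. Downstream, the signalling and migration list had 5 of 32 tested genes called higher and 0 lower: Grk3 (a kinase that desensitises receptors), Vav1 and Elmo1 (activators of Rac GTPases), Rac2 (a leukocyte Rac) and Coro1a (an actin regulator). Their log2 fold changes were 0.83, 0.92, 1.07, 1.02 and 0.69, and with the replicate block 0 of the 32 were called higher by limma. Of 16 tested adhesion genes 4 were called higher and 0 lower, namely Cd44, Itga4, Vcam1 and Itgb2, at 1.25, 0.79, 0.61 and 0.85 on the log2 scale. With the block 2 of the 16 were called.

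The genes that induce CXCL9 to CXCL11 or are induced with them had 4 of 14 tested genes called higher and 0 lower. Over all genes tested 2.72% were called higher and 2.41% lower. The 4 called genes were the interferon-inducible GTPases Gbp2, Gbp3 and Gbp5 and the transcription factor Irf7. Their log2 fold changes were 1.104, 0.73, 0.96 and 0.72, and with the block 2 were called. Of 11 tested NF-kB genes 2 were called higher and 0 lower, Relb and Nfkb2, the subunits of the non-canonical pathway, at 1.31 and 0.81 on the log2 scale, and 1 was called with the block. Nfkbia, an inhibitor induced by canonical NF-kB, had a log2 fold change of -0.49 (limma adjusted p = 0.0704). Nfkbie, another inhibitor, had 0.80 (limma adjusted p = 0.0555), Tnfaip3, a feedback regulator of the pathway, had 0.60 (limma adjusted p = 0.0897) and the cytokine gene Il1b had 1.08 (limma adjusted p = 0.137). None of these 4 was called. Of the 11 genes, 6 were higher and 1 was lower without overlap between the groups. The shares over all genes tested were 14.6% and 13.2%. The groups overlapped for Rela, Rel, Nfkbiz and Bcl3, at 0.02, 0.17, 0.21 and -0.18 on the log2 scale.

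Leukocyte and liver cell markers moved with these genes in part, and their part in the results was not tested. The shares called over all genes tested were 2.72% higher and 2.41% lower. With the block 346 and 342 of all 18459 genes were called. Over all genes tested the median log2 fold change was 0.17 on log2(FPKM + 0.1) and 0.02 on the deposited log2 values. FPKM thus lay somewhat higher in cadmium livers in general, and the FPKM sums given above and below are not corrected for this. Macrophage markers had 7 of 15 tested genes called higher and 0 lower (Lyz2, Mpeg1, Tyrobp and Cd68 among them, at 1.03, 0.91, 1.11 and 1.63 on the log2 scale), and 7 were called with the block. Leaving out 1 library gave 0 to 12 of the 15 and 83 to 603 of all genes called higher, with 0 and 83 without cadmium replicate 3. Their summed level was 114 to 137 FPKM in cadmium livers and 50.7 to 83.0 FPKM in control livers. Monocyte markers had 3 of 10 called higher and 0 lower (Fcgr4, Plac8 and Ms4a4c, at 1.17, 1.21 and 1.86), 0 with the block. The 10 markers ranged from -0.15 (Nr4a1) to 3.04 (F13a1) on the log2 scale, with Ly6c2 at 0.39 (limma adjusted p = 0.583). Fn1, which hepatocytes also express, made up 96.5% of their summed level (log2 fold change 0.04). Their sum was 172 to 209 FPKM in cadmium livers and 138 to 188 FPKM in control livers, and without Fn1 it was 7.22 to 9.68 FPKM in cadmium livers and 3.31 to 5.08 FPKM in control livers. Dendritic cell markers had 1 of 12 called higher, Itgax at 2.19, with sums of 44.4 to 58.1 FPKM in cadmium livers and 36.9 to 45.9 FPKM in control livers. Bst2 made up 92.6% of that level, and without it the sums were 3.82 to 4.35 FPKM in cadmium livers and 2.55 to 2.88 FPKM in control livers. Kupffer cell markers had 0 of 10 called higher and 2 lower, Cd163 at -4.68 (limma adjusted p = 2.78e-05) and Timd4 at -2.67 (limma adjusted p = 0.0034), while their sum was 47.0 to 56.8 FPKM in cadmium livers and 31.6 to 48.2 FPKM in control livers. Clec4f, the Kupffer cell lectin, had a log2 fold change of 0.09 and was not called. Among the 8 uncalled markers, Cd5l, the most abundant, had 0.77 (limma adjusted p = 0.201) and Il18bp had 0.73 (limma adjusted p = 0.0509). Vsig4 had -0.44 and Marco had -0.20.

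Neutrophil markers had 0 of 4 tested genes called by limma, 1 by voom and 2 at an unadjusted p under 0.05, and their sum was 1.91 to 2.51 FPKM in cadmium livers and 0.486 to 1.26 FPKM in control livers. S100a9, the most abundant of them, was at 1.098, 1.102 and 1.014 FPKM in cadmium livers and 0, 0.579 and 0 FPKM in control livers (limma adjusted p = 0.1005). Of the 6 listed neutrophil markers under the count minimum, S100a8 had 53 reads in cadmium libraries together and 8 in control libraries, with no overlap between the groups. Camp had 13 reads in cadmium and 0 in control libraries, Mmp8 had 7 and 0, and Retnlg had 9 and 2. Elane had 0 reads in cadmium and 5 in control libraries, Ngp had 0 and 11, and Ly6g and Mpo were not analysed here. T cell markers had 0 of 13 called by limma or voom and 1 at an unadjusted p under 0.05, with sums of 2.15 to 3.42 FPKM in cadmium livers and 1.72 to 2.94 FPKM in control livers. NK and innate lymphoid markers had 0 of 8 called by limma or voom and 0 at an unadjusted p under 0.05, with sums of 1.40 to 1.64 FPKM in cadmium livers and 0.787 to 1.56 FPKM in control livers. Platelet markers had 1 of 5 called higher, Pf4, which was not called with the block, and red cell markers had 0 of 6 called by limma or voom, or at an unadjusted p under 0.05. Their sums were 2.0999 to 2.39 FPKM and 175 to 568 FPKM in cadmium livers, and 1.01 to 1.42 FPKM and 127 to 446 FPKM in control livers.

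Stellate cell and fibroblast markers had 5 of 13 tested genes called higher and 0 lower (the collagens Col1a1 and Col3a1, and Colec11, Lrat and Pdgfrb), at 1.98, 1.59, 0.52, 0.51 and 0.97 on the log2 scale, and 2 with the block. Their sum was 80.0 to 84.1 FPKM in cadmium livers and 43.9 to 69.8 FPKM in control livers. Beside these counts, 2.72% of all genes tested were called higher and 2.41% lower. The lists for sinusoidal endothelium (10 tested), lymphatic and stromal lymphoid cells (5), cholangiocytes (7), mesothelium (6), hepatocytes (10) and RNA quality (6) had 0 genes called in either direction by limma. Unadjusted p-values under 0.05 were found for 3, 2, 1, 1, 3 and 0 genes of these lists, in the order named. Their most abundant genes were Clec4g, Prox1, Spp1, Krt19, Alb and mt-Rnr2, with log2 fold changes of 0.27, -0.40, 0.85, 0.64, -0.17 and 0.01. Over all the lists used here other than that of eosinophil and mast cell markers, 34 genes were called higher. That number was 9, 13 and 5 without cadmium replicate 1, 2 or 3, and 25, 38 and 15 without control replicate 1, 2 or 3. Over all 18459 genes tested 503 were called higher. That background was 186, 357 and 83 without cadmium replicate 1, 2 or 3, and 603, 430 and 310 without control replicate 1, 2 or 3.

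The authors' deposited table carries fold changes, p-values and FDR over all 34352 genes, without the count minimum used above. For the tested chemokine and receptor genes its log2 fold changes equal those of limma on the same log2 values. Only its p-values and FDR are a separate result. At an FDR under 0.05 the authors' deposited table had 3.72% of all genes higher in cadmium livers and 3.15% lower. Of the chemokine and receptor genes, 7 were higher and 2 lower in the authors' deposited table. The 6 genes called by limma were among them, and the authors' deposited table added Cxcl11 (FDR 0.00229), Ccl2 (FDR 0.0301) and, as a lower gene, Cxcl12 (FDR 0.0207). The authors' test is not named in the labels or file headers.

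**Figure D5:**
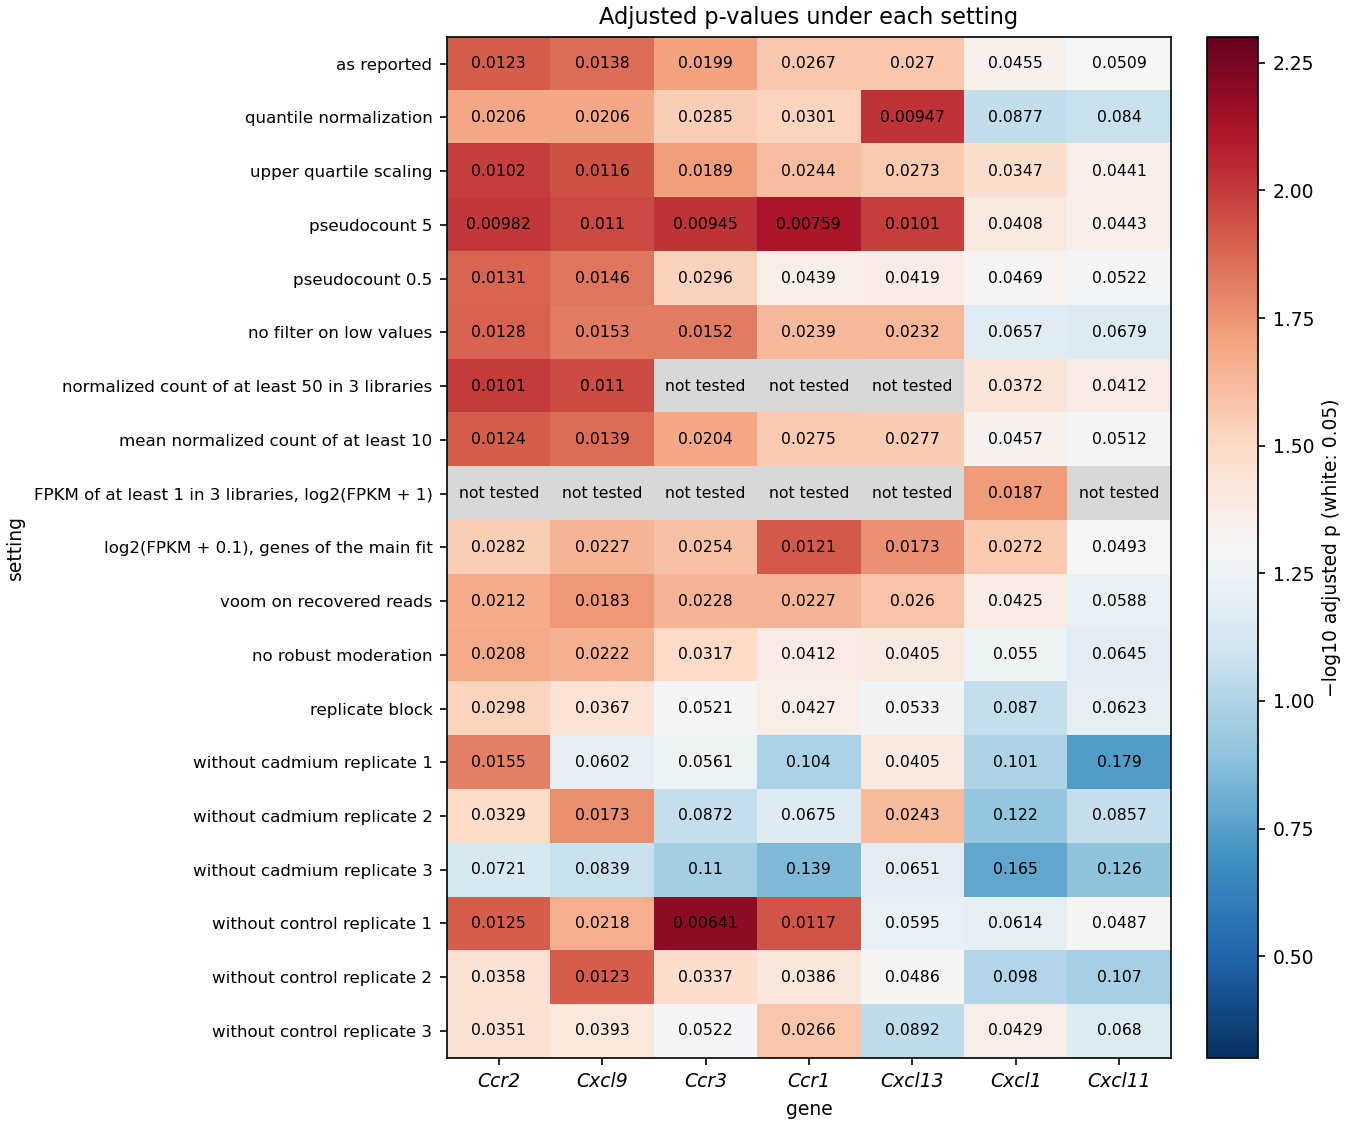
Limma adjusted p (number in each cell; colour is -log10, white at 0.05) of the 6 called genes and Cxcl11 (x axis) as reported and under 18 alternative settings (y axis; grey, not tested there). Ccr2 stays under 0.05 in every setting that tested it other than the fit without cadmium replicate 3, and Cxcl1 crosses the threshold most often.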

How the data were processed

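Input RNA-seq libraries of mouse liver were used, 3 per group. Tools listed in the submitters' processing notes, without role or order, are STAR (2.7.1a), cutadapt (1.1.8), MACS2 (2.1.1), SAMtools (1.3.1) and DESeq2, and mm10 is the build listed. Neither the counter nor the annotation nor the authors' test is given there. The authors deposited FPKM for 55335 genes and, for 34352 genes, log2 values with group means, log2 fold changes, p-values and FDR. Undoing the deposited log2 gave whole read counts in all libraries (100% of values within 0.05 of a read), so those values are log2(reads / size factor + 1).

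Limma 3.58.1 in R 4.3.3 was fitted to the deposited log2 values two-sided, with its trend and robust options and Benjamini-Hochberg adjustment over the 18459 genes with a normalised count of at least 10 in 3 libraries. The recovered reads were fitted with limma's voom as an alternative. The fit was tested on simulated data. The labels give the replicate number as batch, so each batch holds 1 cadmium and 1 control library. Deviations from group means correlated across genes at -0.05, -0.05 and -0.03 for the same number and -0.04 to 0.09 for other pairs. All called genes and other tested genes with a mean normalised count of at least 100 were named with every value, other than 1 that is not reported here. Of the marker and pathway lists, the called genes of smallest p, or the most abundant one, were named, and some uncalled genes were named beside them. The genes and lists were chosen with earlier results of these data known. RefSeq promoters (GRCm38.p6) matched 31 of the 45 genes by symbol, and protein sequences were not used here. Gene positions are from GENCODE (GRCm38). Alternatives varied scaling, pseudocount, filter, unit, test, block and libraries.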

Additional observations from a re-analysis of the deposited data

How the results depend on the processing

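The counts of called genes depended on the libraries kept. With the replicate block, whose pairing the labels give as batch, 3 of the 28 genes were called higher and 0 lower, against 5 and 1 without it, and the genes of the pathway and marker lists called higher numbered 17 against 34. Over all genes 346 were called higher and 342 lower with the block, against 503 and 445 without it. Leaving out 1 library gave 0 to 5 of the 28 called higher and 0 to 1 lower, with 0 of each without cadmium replicate 3. It gave 5 to 38 list genes higher and 2 to 3 lower, and 83 to 603 of all genes higher and 116 to 491 lower. The cause was not tested. The median of the 28 genes minus that of all genes was 0.33 as reported and 0.19 to 0.51 with 1 library left out.

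The fit on log2(FPKM + 1) kept 4 of the 45 genes and called 2 higher and 0 lower. It called 1 list gene lower, against 2, and 779 of all genes higher and 180 lower, and the median difference was 0.11. On log2(FPKM + 0.1) 864 of all genes were called higher and 174 lower, the median of all genes was 0.17 and the difference was 0.24. With quantile normalization the difference was 0.23. A count minimum of 50 left 0 of the 28 called lower, since Cxcl13 was then not tested. All 6 called genes lost the call under at least 1 alternative and none changed sign, and 5 others gained one.

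Sign changes, 19 in 9 genes, arose only where the gene was not called. On log2(FPKM + 0.1) the log2 fold changes were 0.0045 for Ccl19, 0.012 for Ccl25, 0.078 for Ccl27a, 0.051 for Ccl6 and 0.062 for Cxcr3. With quantile normalization they were -0.13 for Ccl21a, -0.11 for Ccr9 and -0.10 for Cxcr5. With 1 library left out they ranged from -0.29 to 0.50 for Ccl21a, -0.23 to 2.14 for Ccl5, -0.45 to 0.42 for Ccl6, -0.22 to 0.25 for Ccr9, -0.39 to 0.33 for Cxcr3 and -0.049 to 0.24 for Cxcr5. Depth limits the low genes: 35 of the 45 had a mean normalised count under 100, and 17 were too low to test.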
